A study of Homo sapiens with 2 samples.

Results

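The genes described here encode the MYC, MAX and MLX network, a set of transcription factors that bind DNA through a basic helix-loop-helix leucine zipper. The members were the 10 rows of the deposited count table named MYC, MAX, MXD1, MXI1, MXD3, MXD4, MNT, MGA, MLX and MLXIP, out of 25534 listed genes. They were measured by RNA sequencing in HN6, a long-established cell line from a human squamous carcinoma of the tongue, in a study that asked what the zinc finger protein ZNF582 does to transcription in head and neck cancer. There were 2 libraries, 1 from control HN6 cells labelled wild type and 1 from HN6 cells transfected, with polybrene, with a plasmid for ZNF582 overexpression. Whether the control received an empty vector or polybrene is not given in its labels, and no clone is named for either library. Both libraries came from cells in DMEM with fetal bovine serum.

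MAX is the common partner of the network. As a dimer with MAX, MYC binds E-box sequences and activates genes of growth and ribosome production, while MXD proteins and MNT compete for MAX and bring the SIN3 and histone deacetylase corepressor to the same sites. MXD1, MXD4 and MNT can also pair with MLX. MLX is a MAX-like partner for a parallel branch, in which MondoA, the protein made from MLXIP, moves to the nucleus when glucose phosphates build up and activates genes such as TXNIP. MYC activity drives growth in many squamous carcinomas, and MXD1 is known from epidermis, where it marks keratinocytes that leave the cell cycle.

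Assigned counts came to 14765244 in control and 17792172 after ZNF582. ZNF582 had 14 counts against 277387, which fits the labels of both libraries. With a single library on each side there is no replicate check of any difference and no p-value, and every interval is a 95% interval of counting error alone, in reads that carry no molecular identifiers. Of 10 squamous carcinoma markers all had reads in both libraries and 2 passed the call rule, both higher, their summed level being 1995 CPM in control cells, where CPM is a count scaled by library size, and 2379 CPM after ZNF582. KRT17, a keratin of stressed and basal epithelium, had 642 counts against 2780, a ratio of 3.89 (3.56 to 4.24), and KRT6A passed the rule on 24 counts against 57. KRT5, a basal keratin, stood at 0.87 on the log2 scale. The adhesion genes EPCAM and CDH1 stood at -0.24 and -0.54, the latter with exonic overlap. KRT14, the partner of KRT5, stood at 1.28 on 7 and 19 counts. It was not called, as its interval on the log2 scale (-0.03 to 2.78) includes 0. Of the 10 squamous markers 8 lay above 0 and 2 below, with a median of 0.52. The part of these differences in the values below was not tested. Among 12 markers of other cell types 8 had no row in the table, PTPRC and CD3E of leukocytes among them, and the summed level of the other 4 was 14.4 against 13.7 CPM, nearly all of it from COL1A1 at 205 and 207 counts. Of the 2 with enough counts VWF, an endothelial marker, passed the call rule, on 5 counts against 16, a ratio of 2.87 (1.005 to 10.02). A gene was called when its fold between the libraries was 2 or more after scaling by trimmed mean of M-values (TMM) factors and its interval excluded 1. By this rule 9.27% of the 16669 genes that reached 20 counts over both libraries were called, 4.25% higher and 5.02% lower in the ZNF582 library.

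Promoter sequences are shown for the members that stood highest and lowest after ZNF582, for members with an E-box near their start, and for the pair of MondoA targets named below. RefSeq promoter windows on GRCh38.p14, which run from 250 bases before a start to 50 after it, were found for 9 of the 10 members, 14 windows in all. The canonical E-box CACGTG reads the same on both strands and was found in 3 of these windows, those of MLX, MNT and MXD4, against 7.26% of all 35116 windows. The related letters CACGCG, on either strand, were found in 3 windows, of MGA, MXD3 and MXI1, against 11.4% of all windows. With 14 member windows, some from the same gene, neither count can be read as an excess. Carbohydrate response elements bound by MLX dimers hold a pair of E-box-like sites, and were searched on both strands as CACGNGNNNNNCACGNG. This string is narrow, with the letters CACG fixed in both sites and both in the same orientation, so inverted or looser pairs were mostly missed. It was found in 20 of all windows, 0.057%, and in 0 of the member windows, which does not show that such elements are absent. The sequences below are the stretch upstream of a RefSeq start that lies outside GENCODE 29 exons, read along the gene's strand, with letters of a searched motif in capitals. Where a gene has several RefSeq starts, as MXI1 does with 3, the outermost one is shown. In ARRDC4 the capitals CACGCGTG are CACGCG and its reverse complement, which overlap.
MXI1 (chr10:110207355-110207604, plus strand): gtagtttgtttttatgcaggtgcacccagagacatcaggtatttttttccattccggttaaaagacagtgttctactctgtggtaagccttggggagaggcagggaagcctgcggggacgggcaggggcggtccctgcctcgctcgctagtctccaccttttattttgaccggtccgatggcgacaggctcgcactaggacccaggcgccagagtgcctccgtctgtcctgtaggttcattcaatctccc
MXD1 (chr2:69914859-69915040, plus strand): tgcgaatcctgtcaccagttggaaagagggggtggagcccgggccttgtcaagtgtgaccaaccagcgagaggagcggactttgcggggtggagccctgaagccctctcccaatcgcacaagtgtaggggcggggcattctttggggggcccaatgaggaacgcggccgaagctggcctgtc
MLX (chr17:42566850-42567067, plus strand): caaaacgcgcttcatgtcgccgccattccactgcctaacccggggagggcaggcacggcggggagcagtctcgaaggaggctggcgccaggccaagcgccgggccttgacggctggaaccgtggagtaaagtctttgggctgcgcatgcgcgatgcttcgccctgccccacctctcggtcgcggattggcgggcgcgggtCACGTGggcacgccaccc
MNT (chr17:2401119-2401310, minus strand): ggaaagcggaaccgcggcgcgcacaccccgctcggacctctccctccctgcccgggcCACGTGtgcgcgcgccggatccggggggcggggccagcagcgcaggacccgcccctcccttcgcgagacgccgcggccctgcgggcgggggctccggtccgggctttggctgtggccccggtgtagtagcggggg
MXD4 (chr4:2262295-2262359, minus strand): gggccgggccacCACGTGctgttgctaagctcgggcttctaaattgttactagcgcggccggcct
TXNIP (chr1:145996601-145996829, minus strand): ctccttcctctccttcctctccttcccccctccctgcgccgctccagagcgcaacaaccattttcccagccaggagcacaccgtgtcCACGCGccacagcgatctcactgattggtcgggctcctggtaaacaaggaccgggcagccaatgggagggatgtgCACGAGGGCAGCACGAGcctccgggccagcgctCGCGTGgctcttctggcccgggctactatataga
ARRDC4 (chr15:97960453-97960697, plus strand): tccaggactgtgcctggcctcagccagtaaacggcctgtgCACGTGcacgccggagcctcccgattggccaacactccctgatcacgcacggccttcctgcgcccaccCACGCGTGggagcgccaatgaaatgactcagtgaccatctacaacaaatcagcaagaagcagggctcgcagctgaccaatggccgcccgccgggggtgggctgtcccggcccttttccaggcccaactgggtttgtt

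Of the members at either end of the range of folds, the printed MXI1 stretch holds none of the motifs, and the MLX stretch has CACGTG 50 bases before the RefSeq start. The CACGCG counted for MXI1 above lies in the window of another of its starts (110225746 to 110226045), 8 bases past that start. The E-box of MNT lies 193 bases and that of MXD4 238 bases upstream. A match of letters is a description of the window and does not show that a factor binds there.

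MXI1 rose after ZNF582 and was the 1 member that passed the call rule. The gene (ENSG00000119950, chromosome 10 from 110207605 to 110287365 on the plus strand in GRCh38) encodes a MAX-binding repressor that antagonises MYC. It had 238 counts in control cells and 628 after ZNF582, or 15.5 and 36.7 CPM, and the counting intervals of the levels did not overlap. The ratio was 2.37 (2.04 to 2.76), higher than that of 96.9% of all genes examined. Its deposited FPKM was 1.84 in control and 4.03 after ZNF582, and the authors' deposited table also called it up. From FPKM with a pseudocount of 1 the call ended, at 0.82 on the log2 scale. No other listed gene shares exons with MXI1.

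MXD1 stood just under the limit. It encodes the repressor also called MAD1 and lies on chromosome 2 from 69897688 to 69942945, plus strand (ENSG00000059728). It had 189 counts in control cells and 410 after ZNF582, at 12.3 and 24.0 CPM, again with intervals that did not overlap. The ratio was 1.95 (1.63 to 2.32), so that 2-fold lay inside its interval and the gene was not called. With DESeq2 size factors it passed, at 1.002 on the log2 scale. Its fold was above that of 94.8% of genes examined. SNRNP27, a splicing factor gene on the same strand, shares 237 exon bases with it, or 3.73% of the merged exons of MXD1, and stood at -0.13 on the log2 scale.

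The other pair of MXD genes lay on the opposite side. MXD3, a repressor linked to S phase (ENSG00000213347, chromosome 5 from 177301461 to 177312757, minus strand), had 80 counts against 58 after ZNF582, and was 1.54-fold lower (1.08 to 2.19). MXD4 (ENSG00000123933, chromosome 4 from 2247432 to 2262294, minus strand) had 69 counts against 62, and its ratio of 0.806 (0.563 to 1.15) did not exclude equal levels. Neither was called, and these were the lowest 2 members in both libraries, in counts and per kilobase. The exons of MXD3 overlap those of PRELID1 over 1158 bases and those of RAB24 over 926 bases, together a large part of its 5154 merged exon bases. PRELID1 stood at -0.02 and RAB24 at 0.75 on the log2 scale. The share of MXD3 counts that came from either gene was not tested.

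The ratio of counts of a pair of genes in the same library does not depend on the scaling, and gene length cancels in its change. The ratio of MXI1 to MXD1 was 1.26 in control and 1.53 after ZNF582, and its change of 1.22-fold (0.962 to 1.54) had an interval that includes 1. All 4 MXD genes together had 576 counts against 1158, a ratio of 1.80 (1.63 to 2.00).

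MYC itself differed little between the libraries. It lies on chromosome 8 from 127735434 to 127741434, plus strand (ENSG00000136997), and had 190 counts in control and 209 after ZNF582. After scaling these were 12.4 and 12.2 CPM, a ratio of 0.987 (0.807 to 1.21), so a difference of 2-fold lies outside the counting interval in either direction. Of its paralogs, MYCL had 37 counts against 19 and was called lower, a ratio of 0.461 (0.250 to 0.822), on few reads. MYCN had no row in the table and was not analysed here.

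MAX, the partner that MYC, MXD, MNT and MGA share, lay slightly higher. It had 167 counts against 237 after ZNF582 (ENSG00000125952, chromosome 14 from 65006174 to 65102695, minus strand), a ratio of 1.27 (1.04 to 1.56) that was not called. Relative to MYC, MAX stood at 0.879 counts in control cells and 1.13 after ZNF582, and the interval of that change (0.967 to 1.72) includes 1. For each count of MYC there were 1.25 counts of MXI1 in control cells and 3.005 after ZNF582, a change of 2.40-fold (1.86 to 3.09). For MXD1 the same ratio went from 0.995 to 1.96, a change of 1.97-fold (1.51 to 2.58).

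MNT and MGA, the larger MAX partners, did not follow MXI1. MNT, a widely expressed repressor (ENSG00000070444, chromosome 17 from 2384060 to 2401118, minus strand), had 362 counts against 291 after ZNF582 and was 1.39-fold lower (1.18 to 1.62), which was not called. The ratio of MXI1 to MNT went from 0.657 to 2.16, a change of 3.28-fold (2.63 to 4.09). AC006435.1, annotated antisense to it, shares 1065 exon bases with MNT and had 6 counts in each library. MGA, a very large protein with a T-box beside its bHLH-zipper region, lies on chromosome 15 from 41621224 to 41773081, plus strand (ENSG00000174197). It had 3483 counts against 3747 and a ratio of 0.965 (0.921 to 1.01).

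MLX was the member farthest below 0. The gene lies on chromosome 17 from 42567068 to 42573239, plus strand (ENSG00000108788). Its counts were 688 in control cells and 449 after ZNF582, or 44.8 and 26.2 CPM, and the intervals of the levels did not overlap. MLX was 1.71-fold lower after ZNF582 (1.51 to 1.93), so that 2-fold lies outside its interval and the gene was not called. Of all genes examined 9.35% had a lower fold. PSMC3IP, a meiotic recombination factor gene on the other strand, shares 770 exon bases with MLX, or 18.1% of its merged exons. It went in the same direction, with 157 counts against 97, a log2 fold of -0.85 (-1.23 to -0.48). Strand use in counting is not stated, and the part of these shared bases in the value of MLX was not tested.

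MLXIP, whose protein MondoA needs MLX to bind DNA, was close to equal in the libraries. It had 2924 counts against 3489 (ENSG00000175727, chromosome 12 from 122078722 to 122147347, plus strand), a ratio of 1.07 (1.02 to 1.12), and its direction turned without TMM factors, to -0.01 on the log2 scale. There were 4.25 counts of MLXIP for each count of MLX in control cells and 7.77 after ZNF582, a change of 1.83-fold (1.605 to 2.08). The ratio of MXI1 to MLX went from 0.346 to 1.40, a change of 4.04-fold (3.33 to 4.92). It moved most of all pairs by construction, because MXI1 had the highest and MLX the lowest fold of the members. MLXIPL, the paralog called ChREBP that is known from liver, had 8 counts against 3. Its ratio of 0.336 (0.0575 to 1.40) did not exclude equal levels.

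**Figure D1:**
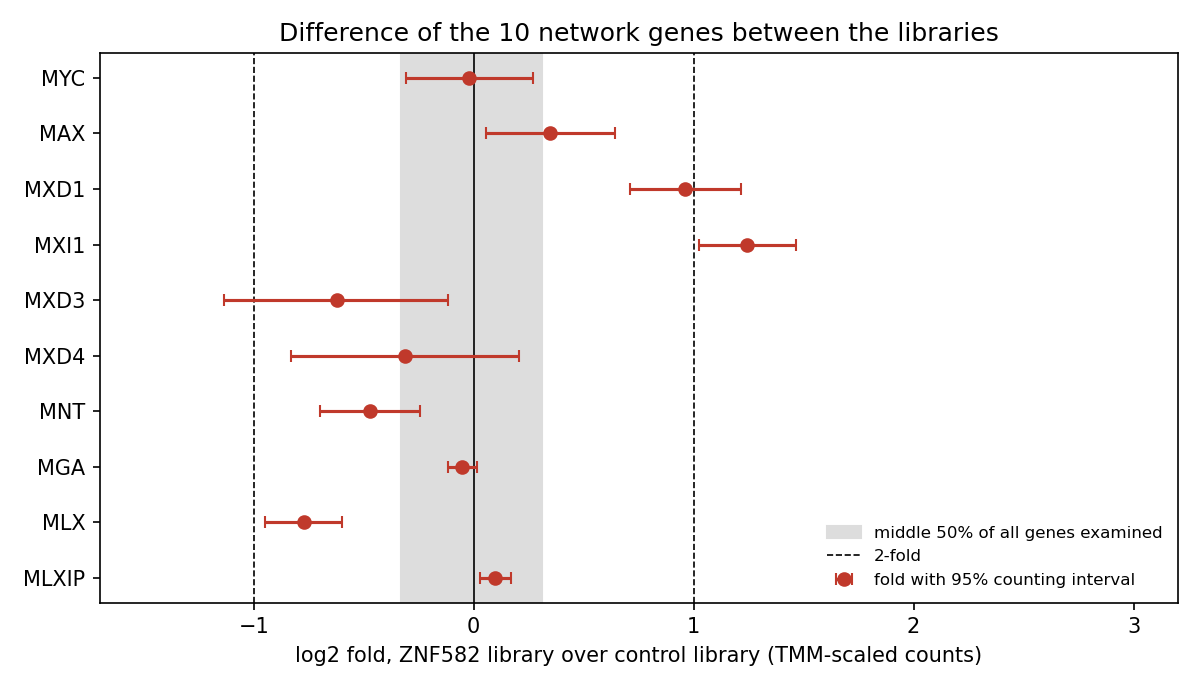
Log2 fold of the 10 members, ZNF582 library over control library, from TMM-scaled counts. Points carry 95% counting intervals, dashed lines mark 2-fold, and the grey band runs between the quartiles of all genes examined, -0.33 and 0.31. MXI1 at 1.24 and MXD1 at 0.96 lie to the right and MLX at -0.77 farthest to the left.

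Counted together, 1 of 10 members was called higher and 0 lower, or 10% beside the background of 9.27%. Among genes with at least 100 counts over both libraries, as all 10 members have, the background was 5.98%. A single called member cannot be read as an excess over either share. At a limit of 1.5-fold with the same interval rule, MXI1 and MXD1 were higher and MLX and MXD3 lower, where the background was 9.9% higher, 10.9% lower and 20.8% in either direction. Over the members the median log2 fold was -0.04, beside -0.007 over all genes examined. By sign alone 4 members lay above 0 and 6 below. The summed counts of all members were 8390 against 9580, a ratio of 1.02 (0.995 to 1.06).

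Levels of different genes were compared per kilobase of merged exons. The deposited FPKM could not serve for this, because the gene length behind it counts exon bases once for every distinct exon that covers them. Among 6520 genes with more than 500 counts in the ZNF582 library, the length implied by count and FPKM was within 0.5% of the sum of all distinct GENCODE 29 exons in 85.4%, and of the merged exons in 6.8%. The 9 members other than MYC met the first criterion. The implied length exceeded the merged exons 3.37-fold for MAX and 2.99-fold for MYC, but 1.31-fold for MNT, so FPKM places the first pair too low beside the others. It does not alter the ratio of 1 gene between the libraries.

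In scaled CPM per kilobase of merged exons, MLXIP at 13.7, MGA at 12.9 and MLX at 10.5 were the highest members in the control library. MYC followed at 4.12, MXI1 at 3.36, MNT at 2.70, MAX at 2.46 and MXD1 at 1.94, and neighbours in this stretch of the order had intervals that overlap. MXD3 at 1.01 and MXD4 at 0.637 were lowest. In the ZNF582 library MXI1, at 7.97, stood next below MGA, above MLX at 6.16 and MYC at 4.07. MXD1 at 3.77 then stood next to MYC with overlapping intervals, and was followed by MAX at 3.13, MNT at 1.95, MXD3 at 0.658 and MXD4 at 0.513. By deposited FPKM, MYC ranks 6 in control cells and 7 after ZNF582 among the members, and per kilobase of merged exons it ranks 4 and 5.

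**Figure D2:**
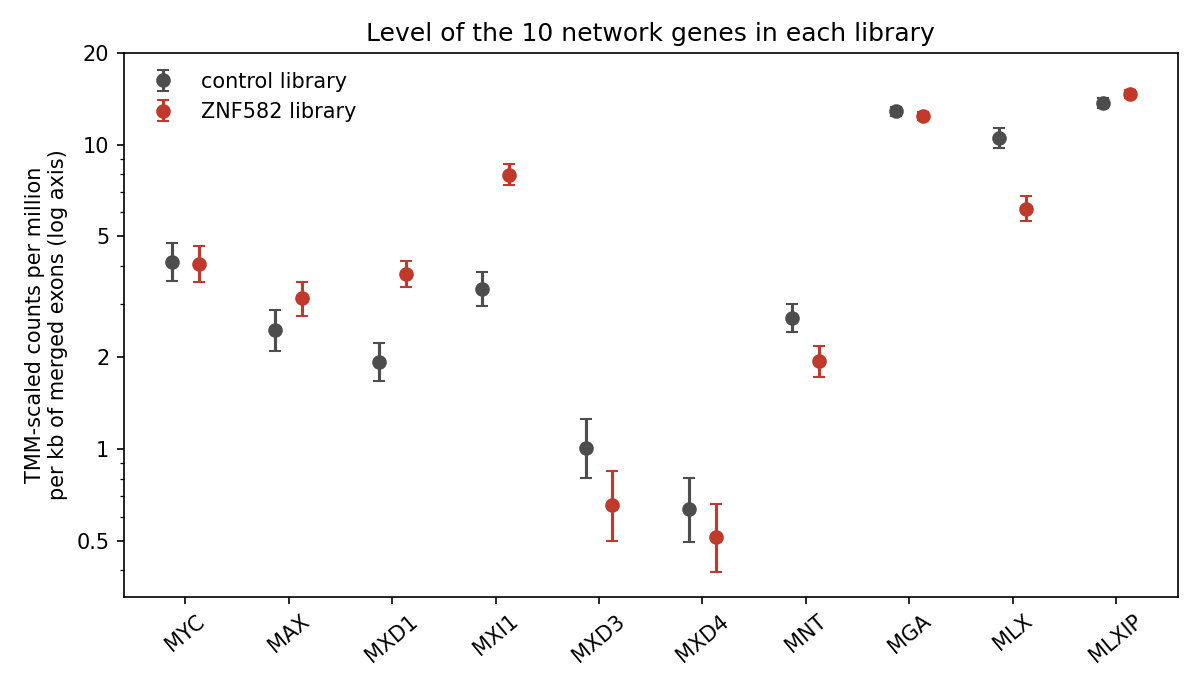
Level of each member in the control library (grey) and the ZNF582 library (red), in TMM-scaled CPM per kilobase of merged exons on a log axis, with 95% counting intervals. MXI1 moves from 3.36 to 7.97 and MLX from 10.5 to 6.16, while MYC is at 4.12 and 4.07.

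Other bHLH-zipper factors that bind E-boxes outside the network gave no call. Of 10 such genes 9 had enough counts, and 0 passed the rule, where the background of 9.27% gives less than 1 gene among so few. Their median log2 fold was 0.01. TFE3, a lysosomal and autophagy regulator, stood at 0.25, USF1 at 0.07 and MITF at 0.01. The sterol regulators SREBF1 and SREBF2 stood at -0.52 and -0.38, both with exonic overlap, and TFEB at -0.73 on 70 counts against 47.

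The proteins that work with MYC were described from lists of its cofactors and of the enzymes that set its stability. None of the 20 cofactors, which include the TRRAP and KAT5 acetylase complex and the elongation kinase gene CDK9, passed the rule. Their median was 0.25, and 17 lay above 0, beside a median of -0.007 and 8249 of 16669 above 0 for all genes examined. The list was chosen with earlier results of these data known, so these values are a description only. Of 22 stability genes 2 were called higher and 0 lower. USP36, a nucleolar deubiquitinase that removes ubiquitin from MYC, had 1063 counts against 2897 and was 2.45-fold higher (2.28 to 2.63). AURKA, a mitotic kinase that also shields N-MYC from degradation, was 2.32-fold higher (2.18 to 2.46). The share of called genes in this list was 9.09%, beside a background of 9.27%, or 5.98% among genes with at least 100 counts. With 2 called genes it cannot be read as an excess.

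The corepressors of the MXD proteins and the complex of MGA each had 1 called gene. Among 20 genes of the SIN3 and histone deacetylase complex, SINHCAF, a subunit of that complex, was 2.86-fold higher (2.68 to 3.06) with 1152 counts against 3676, although it has exonic overlap with other listed genes. The other 19 did not pass, and the median was -0.04. This is 5% called, beside a background of 9.27%, or 5.98% among genes with at least 100 counts. Of 14 genes of PRC1.6, the polycomb complex that MGA and MAX join, PCGF6 was 2.11-fold higher (1.85 to 2.41). PCGF6 is the subunit that defines this complex, and the median of the list was 0.006, with 7.14% called beside the same background. The call of PCGF6 depends on the TMM factors. In deposited FPKM, scaled by total counts, it had 5.01 in control and 9.77 after ZNF582, under 2-fold. E2F6, of the same list, was not called at -0.90 on the log2 scale, but its FPKM of 3.48 and 1.72 is past 2-fold lower. HDAC1 and HDAC2 belong to both lists.

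Targets of MondoA and ChREBP divided. Of 16 such genes 13 could be examined, and 3 were higher, 1 lower and 9 neither, or 30.8% called beside 9.27% in the background. This list, like the others, was chosen with earlier results of these data known, so its share is a description only. TXNIP, an inhibitor of glucose uptake, had 496 counts against 7986, and its relative ARRDC4 had 141 against 1389, log2 folds of 3.85 and 3.14. The TXNIP window printed above holds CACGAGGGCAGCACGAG 88 bases before the start, in the form searched for. As TXNIP is a known target, this match is a description and no test of the string. The string was not found in the ARRDC4 window, which holds CACGTG 210 bases before the start, and looser pairs were not searched there. Motifs in the windows of the other targets, higher or lower, were not looked up, so a link between motif and fold was not tested. KLF10, a zinc finger repressor induced by glucose and by TGF-beta, was 2.64-fold higher (2.51 to 2.78). On the other side SCD, a fatty acid desaturase, was 3.71-fold lower (3.54 to 3.90), while FASN stood at -0.61, ACACA at -0.49 and HK2 at -0.42 without passing. The median of the list was -0.23. The 3 higher genes lay opposite in direction to MLX and to SCD.

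Genes widely cited as MYC targets had few calls. Of 48 targets in the nucleolus and in growth 1 was called, RRP12, a factor of ribosome export, at 2.01-fold higher (1.89 to 2.13) with exonic overlap. This call depends on the TMM factors, as its deposited FPKM of 8.74 in control and 16.2 after ZNF582 is under 2-fold. The 1 call is 2.08% of these targets, beside the background of 9.27%. Their median was 0.27, and 37 of 48 lay above 0, compared with 8249 of 16669 genes examined. Of 29 examined targets in metabolism and the cell cycle 1 was called, EIF4A1, an RNA helicase of translation initiation, at 2.12-fold lower (1.98 to 2.27). It shares exons with the readthrough gene SENP3-EIF4A1, which makes its count uncertain. The median of that list was -0.08, with 11 above 0 and 18 below.

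Among 14 examined genes widely cited as repressed by MYC, 2 were higher and 0 lower, or 14.3% called beside the background of 9.27%. GADD45A, a stress sensor of growth arrest, rose from 785 to 4547 counts, 5.20-fold (4.82 to 5.61), and its relative GADD45B was 2.07-fold higher (1.54 to 2.83). The call of GADD45B depends on the TMM factors, as its deposited FPKM of 0.824 in control and 1.58 after ZNF582 is under 2-fold. The median of the list was 0.27, with 10 genes above 0 and 4 below.

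**Figure D3:**
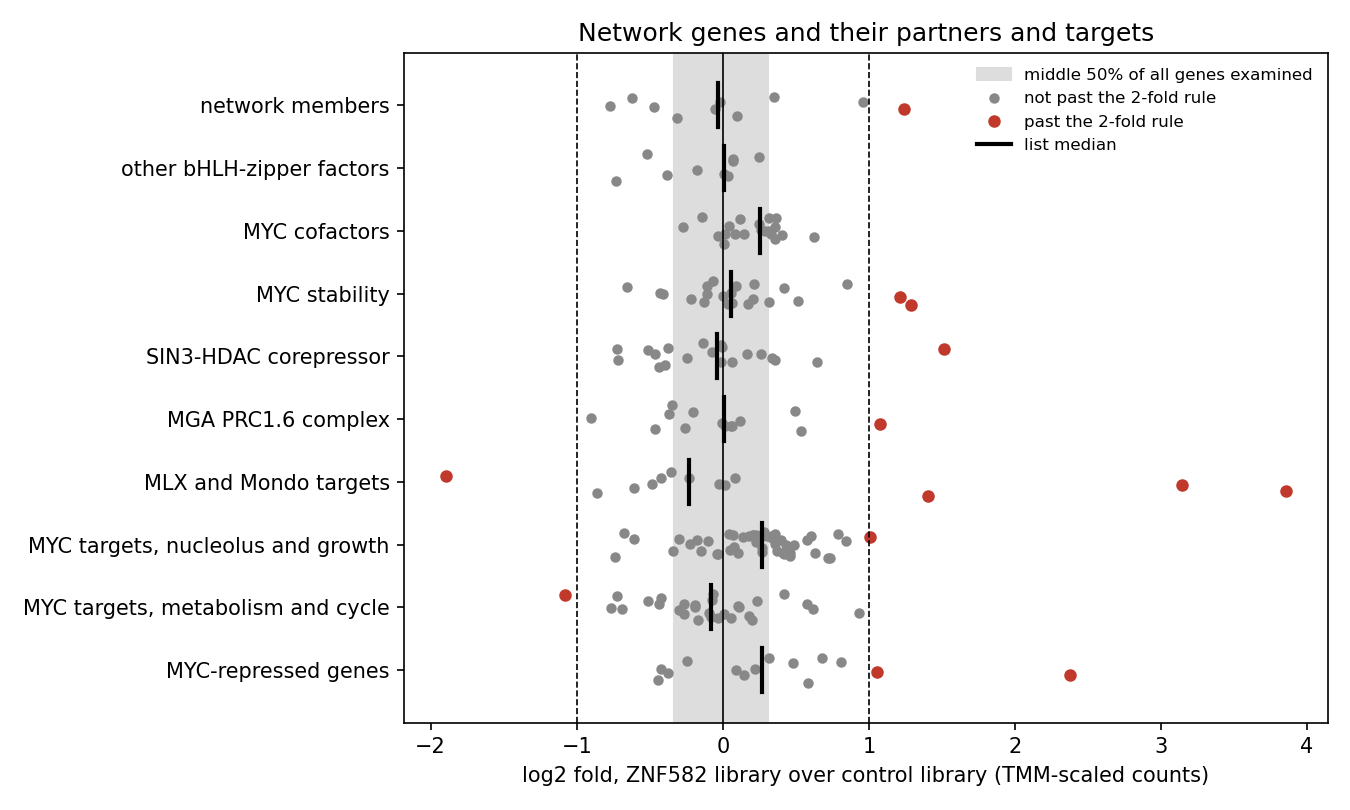
Log2 fold of each examined gene in the members and in 9 lists of partners and targets, ZNF582 library over control library. Red points passed the 2-fold rule, black bars are list medians, dashed lines mark 2-fold and the grey band runs between the quartiles of all genes examined. TXNIP at 3.85 and SCD at -1.89 are the extremes, both among the MLX and Mondo targets.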

How the data were processed

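RNA was sequenced from 2 HN6 cultures, 1 per group. Alignment and assembly tools named in the submitters' processing notes are HISAT2 2.0.4 and StringTie 1.3.0, with build GRCh38. Since no counting program, annotation release or strand setting is given there, the deposited counts, whole numbers in every record, are treated as estimated counts. 1 record broken over 2 lines was rejoined. The authors deposited FPKM scaled by total counts.

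Members and gene lists were chosen with earlier results of these data known. Counts were scaled by totals with TMM factors (1.04 for control, 0.962 for ZNF582) from edgeR 4.0.16 in R 4.3.3, computed on genes that reached 20 counts over both libraries. Folds carry exact 95% Clopper-Pearson intervals conditional on the sum of both counts, levels in CPM (scaled counts per 1e6) exact Poisson intervals, and changes of a ratio between genes exact conditional intervals of the odds ratio. No test was possible with 1 library per group. All members are named, and of each list the called genes with at least 100 counts, up to 6, with further list genes chosen after their values were seen. Exons came from GENCODE 29, in which 25271 listed identifiers were found, and all members had the same span there. The code was tested on simulated counts. DESeq2 1.42.0 gave size factors, and scipy 1.17.1 with numpy 2.4.6 under Python 3.11.15 the intervals.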

Additional observations from a re-analysis of the deposited data

How the results depend on the processing

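Of 50 folds of single members under 5 other scalings and measures, 45 kept their side of the 2-fold rule and, where the sign turned, stayed within their counting interval. MXD1 passed, at 1.002 on the log2 scale, with DESeq2 size factors, which made 2 members called higher, and MXI1 no longer passed, at 0.82, from FPKM with a pseudocount of 1, which left 0. A pseudocount of this size shrinks folds of genes at a few FPKM by construction. MLXIP turned to -0.01 without TMM factors and from FPKM with either pseudocount. The sign of MYC turned with DESeq2 size factors, to 0.02. MXI1 ranged from 0.82 to 1.28, MXD1 from 0.48 to 1.002 and MLX from -0.88 to -0.70. At 1.5-fold, 2 members were higher and 2 lower, and in all genes 1650 higher and 1823 lower. Over all genes, 709 were higher and 836 lower, or 45.9% higher. Without TMM factors 565 were higher and 1097 lower, or 34.0% higher, and the median of all genes moved to -0.12. With at least 100 counts 395 were higher and 352 lower, from FPKM with a pseudocount of 1 it was 153 and 158, and without genes that overlap another listed gene 431 were higher, each over fewer genes or with shrunken folds. That last setting keeps 6 of the 10 members and leaves out MXD1, MXD3, MNT and MLX. Of the genes in the partner and target lists 13 were called, 11 without TMM factors, 39 at 1.5-fold and 8 from FPKM with a pseudocount of 1. The calls of PCGF6, RRP12 and GADD45B, and of the marker KRT6A, lie near the limit, and their deposited FPKM differs by less than 2-fold. Leaving ZNF582 out of the totals changed no count of calls. No paired analysis was possible because each group had 1 library. Counts limit MXD3 and MXD4 most, at 58 to 80 reads.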

Other observations

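Noncoding genes beside MYC were read as well. PVT1, a long noncoding RNA gene next to MYC whose promoter is known to compete with that of MYC for enhancers, had 1851 counts in control cells and 2480 after ZNF582. Its ratio of 1.20 (1.13 to 1.28) was not called. CASC11 had 9 counts against 15, PCAT1 15 against 8, CASC8 13 against 6 and CCAT1 1 in each library, too few reads for a difference of 2-fold to be detectable. PVT1 and PCAT1 have exonic overlap with other listed genes.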
